A study of Mus musculus with 8 samples.

Results

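The epidermal growth factor (EGF) receptor family and its ligands were examined in skin that lacks p63, the product of Trp63 and a transcription factor of layered epithelia. The genes were Egfr, Erbb2 and Erbb3 for the receptors and Areg, Btc, Hbegf, Tgfa, Ereg, Egf and Nrg1 for the ligands, 10 in all. Every probe set (a group of short probes for 1 transcript) that the platform annotation gave exactly 1 of these symbols was taken, which found 7 of the 10 genes, of 13675 genes that the annotation names in this way on either chip, and 14 of 24965 probe sets. Erbb2, Areg and Nrg1 had no such probe set and were not analysed here.

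Mouse embryos were taken at E18.5 (counted in embryonic days), and their whole skin gave the RNA. They came from matings of mice heterozygous for p63. Single-colour Affymetrix arrays of 2 types, called the A and B chip, were used, 8 arrays in all. On each chip, skin of 2 p63 null embryos was compared with skin of 2 wild-type embryos. Whether the chips share embryos is not settled by the labels. The sources used here do not give the p63 allele, the strain or the sex of the embryos, and name no treatment. The chips carry different probe sets and were analysed apart, with 12 of the 14 probe sets on the A chip, 2 on the other.

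The receptors of this family are tyrosine kinases of the cell surface that signal in pairs through the Ras-MAPK cascade, PI3-kinase with Akt, and Stat factors. EGFR binds EGF, transforming growth factor alpha, amphiregulin, betacellulin, HB-EGF and epiregulin, while ERBB3 binds neuregulins, has little kinase activity of its own and relies on its partner. The ligands are made as membrane-anchored precursors that metalloproteases of the ADAM family release. In skin the family is known for keratinocyte growth and for the shaping of hair follicles, and ERBB3 also for Schwann cells and melanocytes.

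Null skin had lower levels of the receptors Erbb3 and Egfr, each on only 1 of its probe sets. The other probe sets of both genes were dim and overlapped between genotypes. The ligand Hbegf had no change past the threshold. Erbb3 fell by 1.09 on the log2 scale (SE 0.12, n = 2 embryos per genotype) and Egfr by 0.60 (SE 0.15). The Egfr call was lost when either wild-type embryo was left out. The ligands Btc, Tgfa and Ereg read lower and Egf higher in both null embryos, but at signals too low to pass the filter on dim probe sets. Of these only Btc kept its call in every unfiltered setting tried.

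Promoter sequence is shown for the members with lower signal in null skin for which the promoter table of RefSeq genes (build GRCm38.p6) held an entry, Btc, Tgfa and Egfr. Each is the 250 bases before the annotated start, 5′ to 3′ on the gene's strand, at chr5:91402995-91403244 (minus strand) for Btc, chr6:86194972-86195221 (plus strand) for Tgfa and chr11:16751953-16752202 (plus strand) for Egfr. Capitals mark matches to the core of the binding motif shared by the p53 family, written here as 2 copies of CNNG with 6 bases between them, a pattern that reads the same on both strands.
Btc: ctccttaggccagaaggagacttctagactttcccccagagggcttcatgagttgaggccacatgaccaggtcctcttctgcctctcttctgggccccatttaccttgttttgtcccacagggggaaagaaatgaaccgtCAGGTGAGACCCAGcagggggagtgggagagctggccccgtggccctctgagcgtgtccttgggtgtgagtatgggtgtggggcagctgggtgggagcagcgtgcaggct
Tgfa: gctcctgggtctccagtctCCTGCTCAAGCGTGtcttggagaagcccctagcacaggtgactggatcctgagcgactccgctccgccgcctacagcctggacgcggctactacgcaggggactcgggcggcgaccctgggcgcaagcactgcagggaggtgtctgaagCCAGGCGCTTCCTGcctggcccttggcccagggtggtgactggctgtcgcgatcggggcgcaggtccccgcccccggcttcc
Egfr: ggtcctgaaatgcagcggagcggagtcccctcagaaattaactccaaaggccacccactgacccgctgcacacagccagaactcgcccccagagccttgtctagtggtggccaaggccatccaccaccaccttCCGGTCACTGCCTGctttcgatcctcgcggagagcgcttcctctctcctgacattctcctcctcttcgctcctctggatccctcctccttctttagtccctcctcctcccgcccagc

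The core occurred once in the Btc window (positions -110 to -97 before the start), 2 times in that of Tgfa (-231 to -218 and -82 to -69) and once in that of Egfr (-117 to -104). So loose a pattern was present in 63.5% of the 32851 promoter windows of the same length, and a match is no evidence of binding. A GC box, searched as GGGCGG on both strands, occurred 2 times in the Tgfa window and once in the Egfr window, against 32.7% of all windows with at least 1. The letters TATAAA (12.4% of windows, both strands) and TGANTCA, the AP-1 motif (6.75%, both strands), were in none of the 3. No motif match overlapped another in these windows. Tgfa had the highest GC content of the 3 windows, 69.2%, with 19 CpG dinucleotides, followed by Egfr with 60.8% and 11 and by Btc with 59.6% and 4. The median GC content over all windows was 52.4%.

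The values are MAS5 signals on a linear scale. For the test, log2 was taken after an offset was added (12.9 for the A chip and 54.3 for the B chip), so that a fold change on this scale understates changes of dim probe sets. A probe set entered the test if its log2 value, averaged over the chip's 4 arrays, was above the 40th percentile, which corresponds to a signal of about 54.0 (A chip) or 167 (B chip). Only 4 of the 14 probe sets passed, 2 on each chip, and 10 lay below. A call is an adjusted p under 0.05 (limma, Benjamini-Hochberg over all tested probe sets of the chip), and a log2 fold change is the null mean minus the wild-type mean.

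Trp63 had signals of 379.3 and 347.1 in wild-type skin and 61.9 and 46.6 in null skin (log2 fold change -2.49, SE 0.18, adjusted p = 1.13e-05). Whether its probes lie inside the mutated part of the gene is not known here. Arrays of 1 genotype correlated at r = 0.950 to 0.984 across tested probe sets, which are not independent replicates. As markers of the labelled tissue, the keratinocyte genes Krt1 and Krt10 were bright in wild-type skin (6597.3 to 7499.6 and 6823.8 to 7120.7) and lower in null skin (708.1 to 867.8 and 1918.6 to 2346.5), while Krt5 and Krt14 lay below the level for testing. Beta-actin signal at the 3′ end over that at the 5′ end, which tracks how intact the RNA was, came to 1.63 and 1.69 for the wild-type A chips against 1.27 for each null one, and to 1.50 and 1.98 against 1.36 and 1.33 for the B chips. It moved with genotype beside every result below, and its part in them was not tested.

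**Figure D1:**
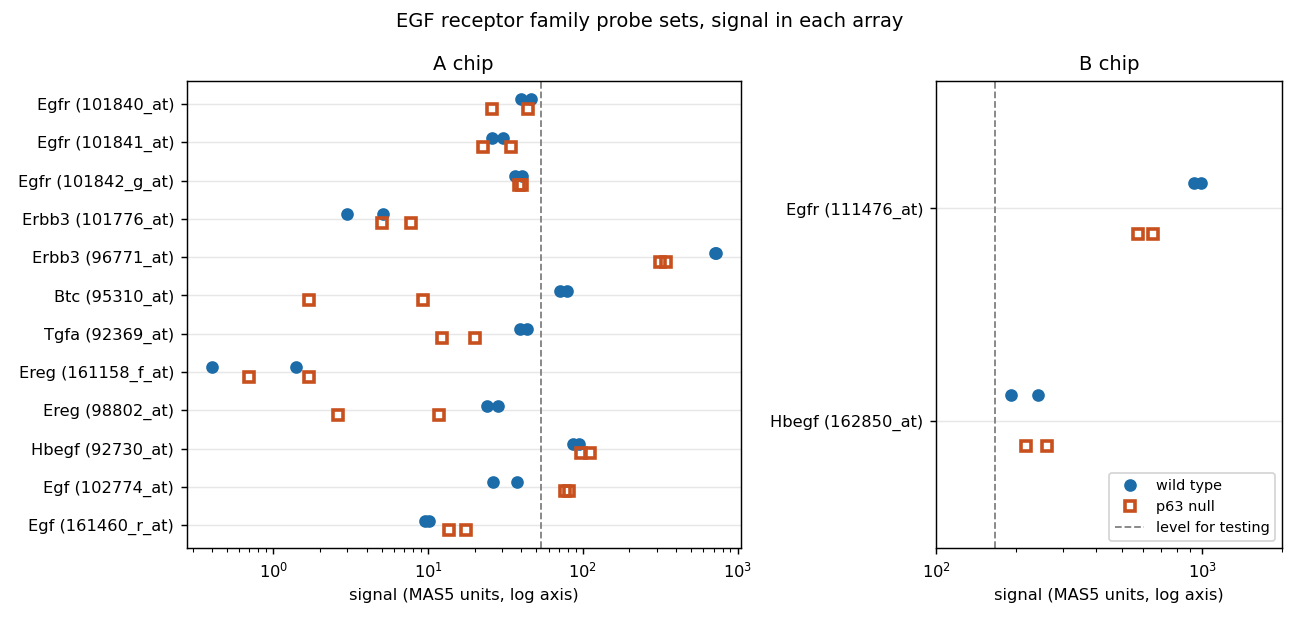
Signal of each of the 14 probe sets in each array on a log axis, with filled circles for the 2 wild-type and open squares for the 2 null embryos, and a dashed line at the level for testing (54.0 for the A chip, 167 for the B chip). Erbb3 (96771_at), Btc, Tgfa, Ereg (98802_at) and Egfr on the B chip show null squares left of both circles, and most A chip probe sets sit left of the line.

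Egfr, the receptor for most of the ligands listed, was lower in null skin on the B chip. Its probe set 111476_at read 985.8 and 926.9 in wild-type skin and 655.3 and 572.6 in null skin. Both null embryos lay below both wild-type embryos. The means were 956 ± 41.6 (SD, n = 2) and 614 ± 58.5, and the log2 fold change was -0.60 (SE 0.15, 95% confidence interval -0.95 to -0.25, adjusted p = 0.0234). Of all tested B chip probe sets 14.9% were called lower and 14.5% higher, so that 1 call among 2 tested members says little about the family. The Egfr call rests on both wild-type embryos: leaving out replicate 1 gave -0.56 (adjusted p = 0.141) and leaving out replicate 2 gave -0.64 (adjusted p = 0.103). Both tested keratinocyte markers of this chip were also called lower, with a summed signal of 17193 and 19004 in wild-type skin and 1174 and 1153 in null skin, and their part in the fall of Egfr was not tested.

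The A chip carried 3 more Egfr probe sets, all below the level for testing and all with overlapping genotypes. Probe set 101840_at read 39.8 and 46.1 in wild-type skin and 25.8 and 43.9 in null skin, with a log2 fold change of -0.25. Probe set 101841_at read 30.3 and 26 against 22.7 and 34.3, and 101842_g_at read 40.5 and 36.5 against 40.2 and 38.7. In all 3 at least 1 null embryo read as high as the lower wild-type embryo or higher. Their 95% confidence intervals in a fit without the filter were -0.94 to 0.44, -0.62 to 0.62 and -0.54 to 0.60. The first and second hold both 0 and the B chip value of -0.60, and the third ends just short of the latter. The offset understates changes of dim probe sets, so the same fall could read smaller on these than on the B chip. The values of the chips are therefore not on a like scale.

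Erbb3, the neuregulin receptor, had the lowest adjusted p of the family. Probe set 96771_at on the A chip read 721.9 and 710.8 in wild-type skin and 345.8 and 315.6 in null skin. The wild-type embryos were nearly equal and both null embryos were lower by more than the spread within either genotype. The means of 716 ± 7.85 (SD, n = 2) and 331 ± 21.4 gave a log2 fold change of -1.09 (SE 0.12, 95% confidence interval -1.37 to -0.81, adjusted p = 1.53e-04). The call held in all 12 alternative settings, and 4.43% of all probe sets of the chip had a more negative fold change. Of all tested A chip probe sets 22.2% were called lower and 22.1% higher, and 1 of the 2 tested members was called lower. A second Erbb3 probe set, 101776_at, read 5.1 and 3 in wild-type skin and 5 and 7.7 in null skin, at the 8.57th percentile of the chip's levels, and its genotypes overlapped.

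Several cell types of skin express Erbb3, and their markers did not move alike on the A chip. In whole skin, fewer cells of a type and less RNA per cell cannot be told apart. Of 14 tested keratinocyte markers 12 were called lower and 0 higher, with a median of -3.16 (log2 fold change) and a range from -5.42 to 0.01, and their summed signal was 43173 and 41585 in wild-type skin and 4679.5 and 5352 in null skin. Dsc1 and Ivl, both among the 12, passed the filter only through the wild-type embryos (null means 20.9 and 16.1). Of 3 tested melanocyte markers 2 were called lower, Dct (-0.90, adjusted p = 7.42e-04) and Pmel (-0.74, adjusted p = 0.00702), and the summed signal was 741 and 732 against 441 and 490.4. The third, Tyrp1, read higher in both null embryos (0.50, adjusted p = 0.0689) and did not pass. A Dct probe set of the B chip did not pass either (-0.43, adjusted p = 0.116). Of 5 tested Schwann cell markers 1 was called lower (Egr2, -0.64) and 1 higher (Pmp22, 0.36), with a summed signal of 1789 and 1842 against 2196 and 1955. Most of that sum was Pmp22, with 1145.1 and 1257.7 in wild-type skin and 1692.2 and 1410.8 in null skin, so the sum mainly follows this gene. Mbp (-0.40) read lower and Mag (0.55) higher in both null embryos, and neither passed. Sox10, a factor of both neural crest lineages, read 237.3 and 221.8 in wild-type skin and 210 and 234.1 in null skin, with overlapping genotypes. A Sox10 probe set of the B chip read 1301.7 and 1252.8 against 1378.1 and 1370.5 (0.10, adjusted p = 0.575). The Schwann cell marker Ngfr on that chip did not pass either (0.28, adjusted p = 0.295). The part of each cell type in the fall of Erbb3 was not tested.

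Markers of other cells rose beside these falls. Called higher on the A chip were 12 of 12 skeletal muscle markers (median 1.34), 10 of 12 leukocyte markers (1.23), 6 of 8 endothelial markers (0.86), 4 of 6 mast cell markers (0.48) and 5 of 10 dermal fibroblast markers (0.39), with 0 called lower in these lists by limma. Ptprc, among the leukocyte markers called higher, passed the filter only through the null embryos (wild-type mean 49.2). The median over all tested genes of the chip was 0.01, and 22.8% of those genes were called lower and 22.4% higher. The fall of Erbb3 was smaller than the median fall of the keratinocyte list, a comparison of values that carries no test.

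**Figure D2:**
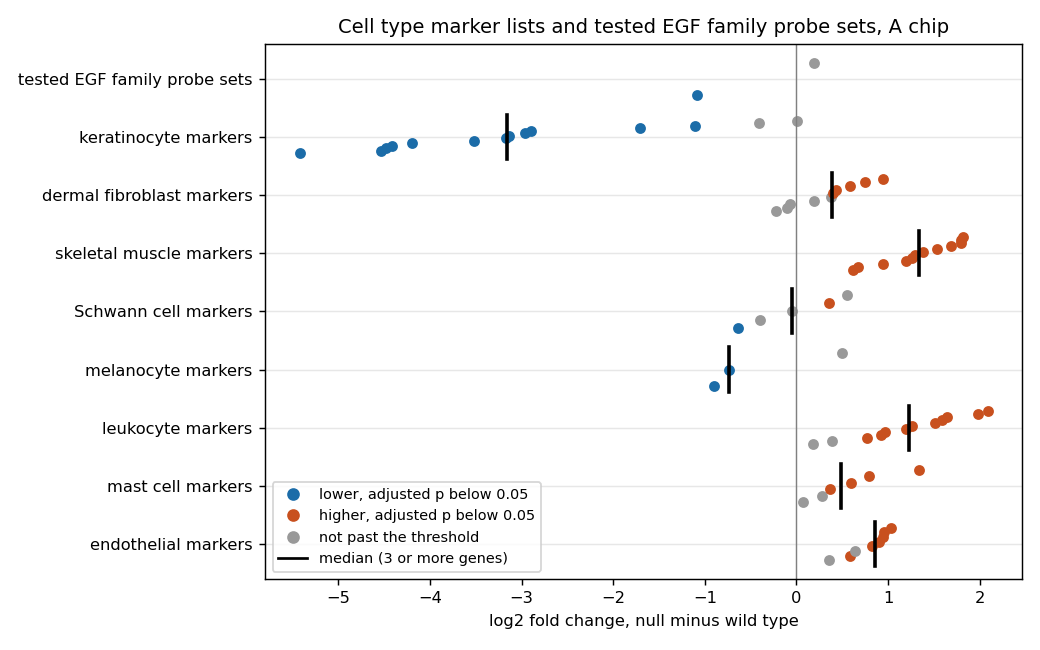
Log2 fold change (null minus wild type) of each tested gene in the cell type marker lists on the A chip, with the 2 tested EGF family probe sets in the top line, coloured by call and with a bar at the median of each list. Erbb3 at -1.09 lies within the range of the keratinocyte list (-5.42 to 0.01), and the muscle, leukocyte and endothelial lists lie to the right of 0.

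The ligand Hbegf, a heparin-binding growth factor made by migrating keratinocytes, macrophages and other cells, did not pass the threshold on either chip. On the A chip, 92730_at read 94.6 and 85.8 in wild-type skin and 98 and 111.1 in null skin. Both null embryos lay slightly above both wild-type embryos, with a log2 fold change of 0.19 (SE 0.19, 95% confidence interval -0.24 to 0.62, adjusted p = 0.451, unadjusted p = 0.352). The B chip probe set, 162850_at, read 191.7 and 240.9 against 261.4 and 217.9, with overlapping genotypes and a log2 fold change of 0.12 (SE 0.23, 95% confidence interval -0.42 to 0.66, adjusted p = 0.723, unadjusted p = 0.615). The intervals leave room for a rise of up to 0.66 or a fall of up to 0.42 on the log2 scale. In all, limma called 0 of 4 tested family probe sets higher, and 0 of them had a rise with an unadjusted p under 0.05. Over all tested probe sets 22.1% (A chip) and 14.5% (B chip) were called higher, so that 0 of 4 says little about the family.

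Betacellulin (Btc), a ligand of EGFR and ERBB4, had the largest difference of the family by fold change. Its probe set 95310_at read 70.9 and 78.8 in wild-type skin and 1.7 and 9.3 in null skin. Both wild-type signals stood above the level for testing and both null signals near the bottom of the chip, so that the mean over the 4 arrays fell short of it. With no filter the log2 fold change was -2.28 (SE 0.28, 95% confidence interval -2.97 to -1.60, adjusted p = 0.00298), and 0.886% of all probe sets of the chip had a more negative value. The size depends on the offset: the log2 fold change was -3.43 with the offset at the 5th percentile and -1.14 with it at the 40th. The call held without any 1 embryo, with adjusted p from 0.0116 to 0.0373.

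Transforming growth factor alpha (Tgfa), the EGFR ligand whose loss gives mice a wavy coat, read 43.5 and 39.2 in wild-type skin and 12.3 and 20.1 in null skin on 92369_at. The genotypes did not overlap, and all 4 signals were under the level for testing. The unfiltered log2 fold change was -0.91 (SE 0.25, adjusted p = 0.0443). This call was lost when any 1 of the 4 embryos was left out. The adjusted p was 0.168 and 0.0718 without null replicate 1 or 2, and 0.161 and 0.145 without wild-type replicate 1 or 2. It was also lost with the offset at the 5th percentile (-1.26, adjusted p = 0.0566), and the log2 fold change was -0.45 with the offset at the 40th.

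Epiregulin (Ereg), another ligand of EGFR and ERBB4, had 2 probe sets. On 98802_at the signals were 28.4 and 24.1 in wild-type skin and 2.6 and 11.8 in null skin, without overlap. The unfiltered log2 fold change was -1.0 (SE 0.27, adjusted p = 0.0430). The adjusted p was 0.160 without null replicate 1, 0.169 and 0.143 without wild-type replicate 1 or 2, 0.0616 with the offset at the 5th percentile (-1.73) and 0.0557 with no variance trend. The log2 fold change was -0.40 with the offset at the 40th percentile. On 161158_f_at, of a class of probe sets that can bind several related sequences, the signals were 0.4 and 1.4 against 1.7 and 0.7, among the lowest of the chip (0.507th percentile), and overlapped.

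EGF itself (Egf) went the other way. Probe set 102774_at read 26.1 and 37.6 in wild-type skin and 80.9 and 76.6 in null skin, so that both null signals were above the level for testing and both wild-type signals below it. The unfiltered log2 fold change was 1.05 (SE 0.25, 95% confidence interval 0.44 to 1.66, adjusted p = 0.0290), and 0.64 with the offset at the 40th percentile. The unfiltered call was lost without any 1 of the 4 embryos, with adjusted p of 0.103 and 0.101 without null replicate 1 or 2 and of 0.133 and 0.0800 without wild-type replicate 1 or 2. The second probe set, 161460_r_at, read 9.5 and 10.2 against 17.6 and 13.6. Both null embryos were again higher, with a log2 fold change of 0.32 (unfiltered adjusted p = 0.274).

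**Figure D3:**
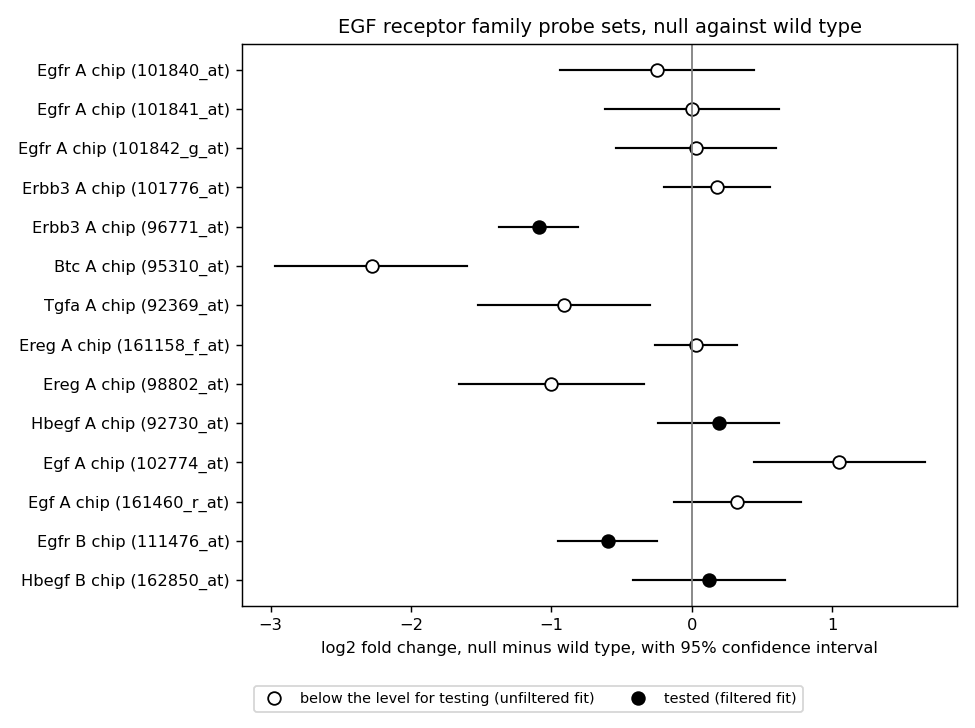
Log2 fold change (null minus wild type) of the 14 probe sets with 95% confidence intervals from limma, filled for the 4 tested probe sets and open for the 10 fitted only without the filter. Btc (-2.28), Erbb3 on 96771_at (-1.09), Ereg on 98802_at (-1.0), Tgfa (-0.91) and Egfr on the B chip (-0.60) have intervals below 0, and Egf on 102774_at (1.05) has one above it.

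Counted without the filter, 4 of the 12 A chip probe sets of the family were called lower (Btc, Erbb3, Ereg and Tgfa) and 1 higher (Egf), where 12.3% of all probe sets of the chip were called lower and 11.9% higher. For the B chip 1 of 2 was called lower, where 7.30% of all probe sets were. By signal alone, both null embryos lay below both wild-type embryos for 4 of the 12 A chip probe sets and above them for 3, against 28.1% and 35.2% of all probe sets, shares near those of the family. The corresponding B chip counts were 1 and 0 of 2, beside 25.1% and 32.8% of all probe sets.

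**Figure D4:**
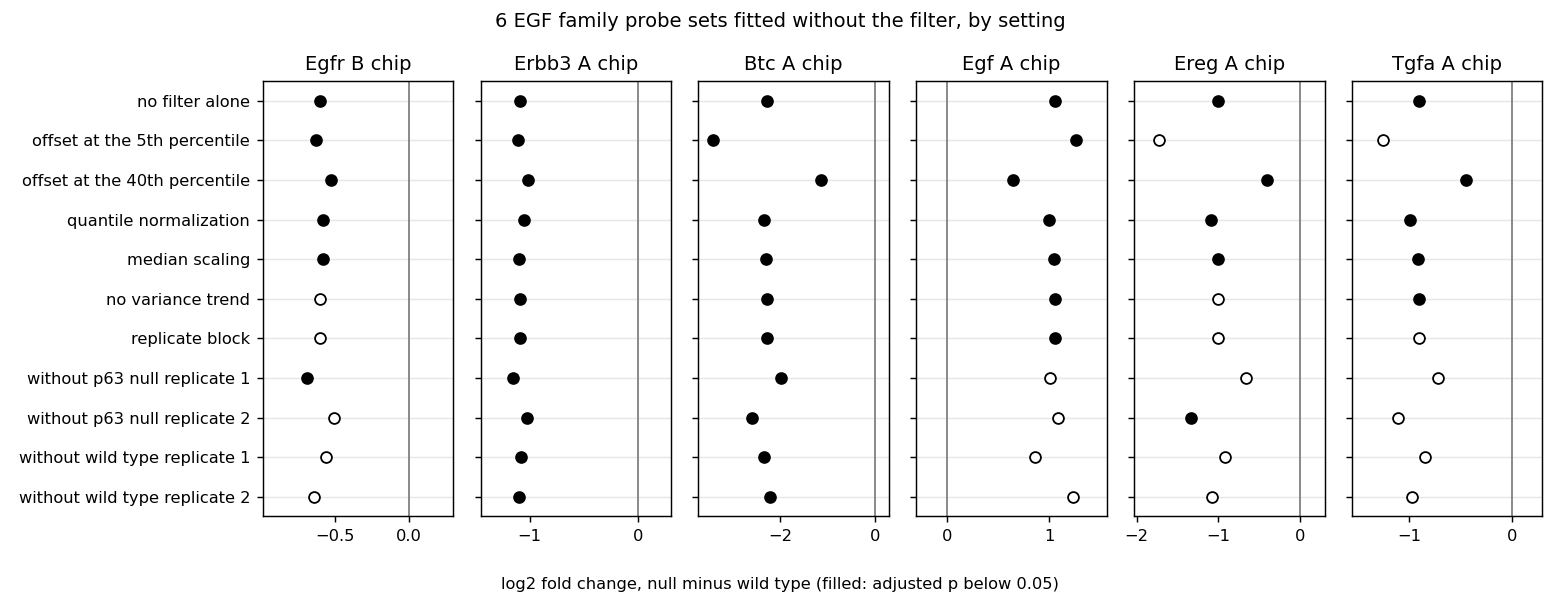
Log2 fold change of 6 family probe sets (1 panel each, own horizontal scale) in the unfiltered fit alone and with 1 further choice changed, filled where the adjusted p was under 0.05. Erbb3 and Btc are filled in all 11 lines. Tgfa and Egf are open in every line that leaves out 1 embryo, and Egfr and Ereg in most of those lines.

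Btc, Ereg and Areg share a place in the genome. In the RefSeq gene order, Epgn, Ereg, Areg and Btc, all encoding EGFR ligands, are consecutive protein-coding genes on chromosome 5. The 2 of them with probe sets of 1 symbol, Ereg and Btc, each had a probe set with lower signal in both null embryos. So had 28.1% of all A chip probe sets, and the second Ereg probe set, 161158_f_at, overlapped. The keratinocyte markers, 12 of 14 lower on the A chip, moved with Btc, Tgfa and Ereg, and their part in these values was not tested.

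Other genes of the family gave few values. Erbb4, the remaining receptor, read 10.3 and 6.3 in wild-type skin and 7.3 and 11.6 in null skin on the A chip, and the neuregulin gene Nrg3 read 3.1 and 2.6 against 4.8 and 1.1, all far under the level for testing and with overlapping genotypes. Nrg4, an ERBB4 ligand known from brown fat, was higher on the B chip, with signals of 683.6 and 527.6 in wild-type skin and 1026.9 and 913.3 in null skin (113113_at, log2 fold change 0.64, SE 0.17, adjusted p = 0.0296, but 0.0536 with no filter and 0.203 without wild-type replicate 2). Erbin, a scaffold that binds ERBB2, was lower on both its B chip probe sets. Signals on 162663_at were 1530.5 and 1447.6 against 938.5 and 850.6 (log2 fold change -0.70, SE 0.13, adjusted p = 0.00863, but 0.0675 without wild-type replicate 1). On 107900_at they were 1055 and 1227.6 against 794.5 and 350.4 (log2 fold change -1.02, SE 0.32, adjusted p = 0.0473).

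Among 8 tested receptor adaptors of the A chip 2 were called lower and 2 higher, with a median log2 fold change of 0.19, shares near the 22.8% lower and 22.4% higher of all tested genes of that chip. Gab1, a docking protein for PI3-kinase and Shp2, fell by 0.79 (adjusted p = 0.00259), and Rasa1, a GTPase-activating protein of Ras, by 0.58 (adjusted p = 0.00909, and 0.0665 without wild-type replicate 2). Grb2, the adaptor that brings Sos to the receptor, rose by 0.65 (adjusted p = 0.00485). Eps8, a receptor substrate, read 35.1 and 42.2 in wild-type skin and 80.6 and 70.8 in null skin and so passed the filter only through the null embryos. It was called higher (0.78, adjusted p = 0.0205), but not with no filter (0.0589) or without wild-type replicate 1 (0.0822), and it fell below the level for testing without null replicate 1 or 2 and under a stricter filter (60th percentile). Among 6 tested adaptors of the B chip 0 passed in limma, where 16.0% of all tested genes were called lower and 16.1% higher. A Rasa1 probe set there gave 0.52 (adjusted p = 0.123), opposite in sign to that of the A chip.

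In the Ras-MAPK cascade 1 of 5 tested A chip genes was called lower and 1 higher (all tested genes: 22.8% and 22.4%), with a median of -0.07. Nras fell by 0.38 (adjusted p = 0.0273) and Map2k2, a kinase that activates ERK, rose by 0.49 (adjusted p = 0.0317). Both calls were lost with no filter (0.0529 and 0.0540) and when wild-type replicate 1 (0.162 and 0.106) or 2 (0.0997 and 0.116) was left out. That of Nras was also lost without null replicate 1 (0.0530) and with no variance trend (0.0736), and that of Map2k2 without null replicate 2 (0.103).

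Most of the PI3-kinase, Akt and Stat genes rose on the A chip. Of 11 tested genes 7 were called higher and 0 lower by limma, where 22.4% of all tested genes of the chip were called higher and 22.8% lower, and the median log2 fold change was 0.51. The Stat factor Stat5a, which read 362.6 and 340.3 in wild-type skin and 568.9 and 670.3 in null skin, rose by 0.79 (SE 0.13, adjusted p = 0.00146). Src, a kinase activated by the receptors, read 55.8 and 30.3 against 81.5 and 97.3, with the wild-type mean below the level for testing. It was called higher (0.90, adjusted p = 0.0223), but not with no filter (0.0743) or without wild-type replicate 2 (0.148), and it fell below the level for testing without null replicate 2 and with the stricter filter. Pik3r1, the regulatory subunit of PI3-kinase, rose by 0.65 (adjusted p = 0.0418, but 0.106 with no filter, 0.234 without null replicate 1, 0.159 and 0.0536 without wild-type replicate 1 or 2). On the B chip 16.0% of all tested genes were called lower and 16.1% higher. Among 6 genes of this list there 1 was called lower and 0 higher, with a median of 0.10. It was Pik3cb, a catalytic subunit (-0.64, adjusted p = 0.0359, but 0.0656 with no filter, 0.0740 without null replicate 1, 0.170 and 0.126 without wild-type replicate 1 or 2). The B chip probe sets of Src (0.21, adjusted p = 0.291) and Pik3r1 (0.31, adjusted p = 0.0876) did not pass.

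Among genes of ligand release, 3 of 8 tested on the A chip were called higher and 1 lower, where 22.4% and 22.8% of all tested genes were, with a median of 0.27. The metalloprotease Adam8, expressed by leukocytes, read 10.7 and 19.1 in wild-type skin and 130.3 and 211.2 in null skin. It passed the filter only through the null embryos, and with no filter its log2 fold change was 2.70 (adjusted p = 0.00246). The value was 3.31 with the offset at the 5th percentile and 1.71 with it at the 40th. Adam8 fell below the level for testing with the lower offset, with the filter at the 60th percentile and without null replicate 1 or 2. Adam12, which can release HB-EGF, rose by 1.31 (adjusted p = 6.42e-04) and Adam9 by 0.60 (adjusted p = 0.00781). The tetraspanin Cd9, a partner of the HB-EGF precursor at the membrane, fell by 0.82 (adjusted p = 0.00289). Adam10 did not pass (-0.33, adjusted p = 0.130), and Adam17, the main releasing enzyme of several EGFR ligands, lay below the level for testing. The leukocyte markers, of which 10 of 12 were higher, moved with the higher Adam8 signal, and their part in it was not tested.

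Of the inhibitors and genes of receptor turnover, 2 of 11 tested on the A chip were called higher and 0 lower by limma, with a median of -0.03 and beside 22.4% and 22.8% of all tested genes. Socs3, a feedback inhibitor of cytokine signals, rose by 0.70 (adjusted p = 0.0131, but 0.0523 without null replicate 1 and 0.0687 without wild-type replicate 2), and Hgs, which sorts receptors for degradation, by 0.47 (adjusted p = 0.0122, but 0.129 without wild-type replicate 2). Errfi1, a direct inhibitor of EGFR that its signal induces, read 433.5 and 420.7 in wild-type skin and 406.8 and 430.1 in null skin (log2 fold change -0.03, SE 0.13, adjusted p = 0.868), and the ERK phosphatase Dusp6 had a value of -0.04 (SE 0.13, adjusted p = 0.815). Among 11 tested genes of this list on the B chip 1 was called lower and 0 higher, beside 16.0% and 16.1% of all tested genes. It was the ERK phosphatase Dusp5 (-0.67, adjusted p = 0.0158). The call was lost when wild-type replicate 1 (-0.72) or 2 (-0.62) was left out.

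Of 13 tested genes known to respond to EGFR signals, 2 were called lower and 1 higher on the A chip (all tested genes: 22.8% and 22.4%), with a median of -0.15. The immediate early gene Ier2 fell by 0.62 (adjusted p = 0.00339) and the cyclin Ccnd1 by 0.44 (adjusted p = 0.0155, but 0.0774 and 0.0666 without wild-type replicate 1 or 2). Plaur, the urokinase receptor, read 32.6 and 60 in wild-type skin and 128.9 and 137.9 in null skin. Its wild-type mean was below the level for testing, and with no filter its log2 fold change was 1.34 (adjusted p = 0.0182). Fos, Egr1 and Myc, standard early targets of the pathway, had log2 fold changes of -0.32, 0.19 and -0.35 and did not pass. The B chip held 1 tested gene of this list, the angiogenic factor Vegfa, with -0.13 (adjusted p = 0.718, against 0.64 and 0.0578 on the A chip).

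**Figure D5:**
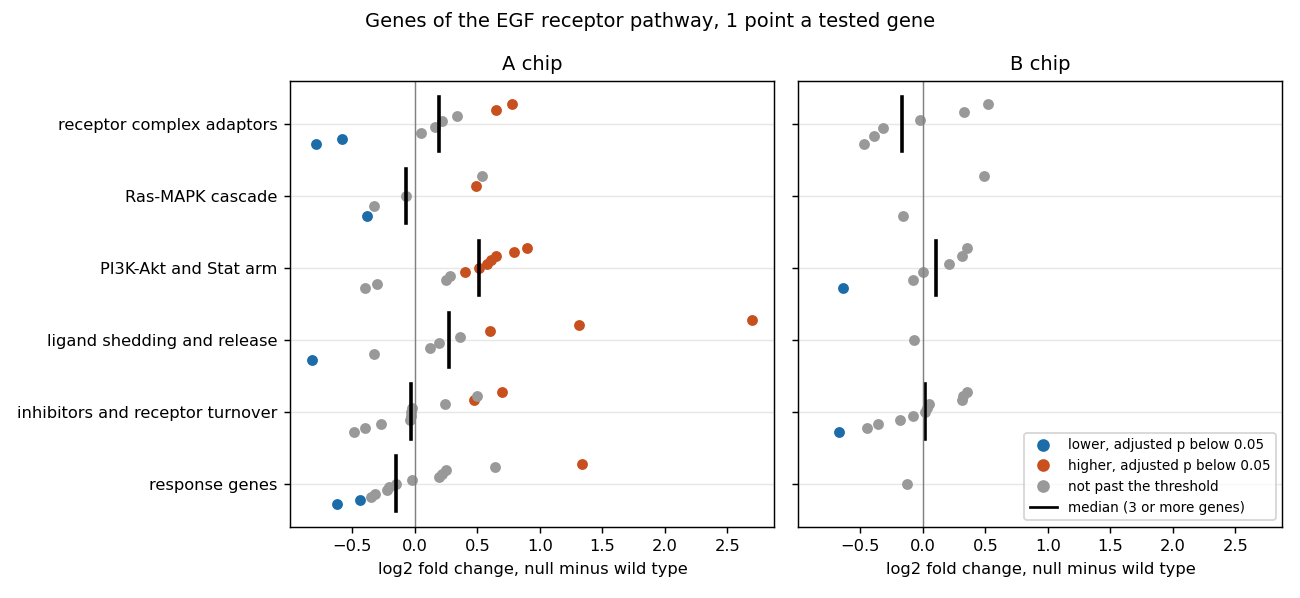
Log2 fold change (null minus wild type) of each tested gene of the 6 pathway lists on the A chip (left) and the B chip (right), coloured by call, with a bar at the median of lists with 3 or more genes. The PI3-kinase, Akt and Stat list is shifted to the right in the left panel (median 0.51), and its median in the right panel is 0.10, and Adam8 is the point at 2.70.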

How the data were processed

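RNA of whole skin was measured on 8 arrays, 2 per genotype and chip. The deposited intensity values are linear MAS5 signals per probe set, with MAS5 named per the submitters' processing notes (the sources used here give neither its version nor its calls of presence). They came scaled, as judged from the values: the 2% trimmed means were 250.1 to 250.2 (A chip) and 500.1 (B chip). MAS5 subtracts mismatch signal, which makes dim probe sets noisy. Groups came from the sample titles, and replicates are separate embryos. Whether the A and B arrays of 1 number share an embryo is not settled by the labels.

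Each array was rescaled to a common 2% trimmed mean, the 20th percentile was added as an offset, and log2 was taken. The 66 control probe sets per chip were left out and 7453 (A) and 7446 (B) probe sets tested with limma 3.58.1 in R 4.3.3 (lmFit, eBayes with intensity trend, two-sided). The fit was tested on simulated data. With 2 arrays against 2 a permutation test cannot go below p = 0.333, so none is given. The number of arrays limits the precision.

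Members, gene lists and tests were chosen with earlier results of these data known. Every probe set of the members is named. From each pathway list the 3 largest falls and rises among called genes without overlap are named, and genes named beyond these (Errfi1, Dusp6, Adam10, Adam17, Erbb4, Nrg3, Fos, Egr1, Myc, Vegfa, the second probe sets and the markers) were chosen after their values were seen. A gene with several tested probe sets was read by the brightest. Platform annotation, which can be old, gave 1 symbol to 10855 probe sets of the A chip and 10603 of the B chip. Alternatives were other offsets, filters, scalings, no variance trend, a replicate block and leaving out each embryo. For family probe sets these were also run without the filter, a step added after the data were seen.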

Additional observations from a re-analysis of the deposited data

How the results depend on the processing

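Of the counts reported, those of all called probe sets, of called family probe sets and of called pathway genes, 81 of 96 alternative values stayed within 1.5 times of the reported count. With the filter the family counts cover at most 3 tested probe sets of a chip, so that a family count that stayed says little. Without the filter, 4 A chip family probe sets were called lower (reported: 1) and 1 higher (reported: 0), and 2 B chip pathway genes were called (reported: 4). When 1 embryo was left out, all called probe sets numbered from 2125 to 3375 on the A chip (reported: 3299) and from 1119 to 2599 on the B chip (reported: 2189), each lowest without wild-type replicate 2 (B chip without wild-type replicate 1: 1175). Called pathway genes ranged from 12 to 22 on the A chip (reported: 22) and from 1 to 9 on the B chip, family probe sets called higher on the A chip from 0 to 1, and those called lower on the B chip from 0 to 1. The A chip call gained is Egf, which passed the level for testing without wild-type replicate 1 (0.86, adjusted p = 0.0334) or 2 (1.23, adjusted p = 0.00723) and was not called in the unfiltered fit of the same arrays. The B chip call lost is Egfr. A lone array left in a group was assumed to vary like the others. No family or named pathway value reversed past the threshold, and 7 of 22 named pathway probe sets (Gab1, Grb2, Stat5a, Cd9, Adam9, Adam12 and Ier2) were called in all 12 alternatives. Another 2, Adam8 and Plaur, were called wherever tested but lay below the level for testing in 4 and 1 of them, and 13 lost a call.

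The replicate numbers are shared between genotypes, but the labels tie no null embryo to a wild-type one, and deviations of same-numbered arrays correlated at 0.039 (A chip) and -0.046 (B chip). With the replicate number as a block, 3368 A chip and 2411 B chip probe sets were called, and family counts did not change. In the unfiltered fit the block ended the calls of Tgfa (adjusted p = 0.0651), Ereg (0.0516) and, on the B chip, Egfr (0.0597). Signal near the bottom of the chip limits every statement on Btc, Tgfa, Ereg and Egf.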

Other observations

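The genes that flank the ligand cluster on chromosome 5 did not move alike. Parm1, the next protein-coding gene after Btc, read higher in both null embryos on its 3 probe sets. So did 35.2% of all A chip and 32.8% of all B chip probe sets. Signals were 1097.5 and 1299.9 in wild-type skin and 2115.8 and 2102.9 in null skin on 162991_at, 394.3 and 494.2 against 825.8 and 989.4 on 107914_at, both on the B chip, and 121.1 and 90.9 against 159.4 and 132.2 on the A chip. Mthfd2l, the gene before Epgn, read 1328.0 and 1408.3 in wild-type skin and 1060.9 and 1120.4 in null skin on 113848_at. These genes were chosen for their place and after the values of Btc and Ereg were known, and no test was made of them as a group.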
